A study of Oryza sativa Indica Group and Oryza sativa Japonica Group with 12 samples.

Results

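Chromatin regions that looped in seedlings of the japonica rice cultivar Dongjin, but had no listed loop in osemf2b seedlings, were described from H3K27me3 ChIA-PET loop lists. ChIA-PET (chromatin interaction analysis by paired-end tags) enriches chromatin that carries a mark, joins DNA ends that lie close together and sequences both sides of each junction, which gives a paired-end tag (PET). Overlapping loop anchors of both lists were merged into 10491 regions, and each region received the summed PETs of its loops. Regions with 20 or more PETs in Dongjin and no loop in the osemf2b list were taken. There were 3225 of them among the 7815 Dongjin regions of 20 or more PETs (41.3%), and they are called unlisted regions here. The other 4590, which had at least 1 osemf2b loop, are called listed regions. Unlisted regions were chosen by their Dongjin PETs and their missing osemf2b loops, so both are given as descriptions and neither was tested. Without the minimum, 50.3% of the 10249 looped Dongjin regions had no osemf2b loop, while 242 of the 5331 looped osemf2b regions (4.54%) had no Dongjin loop.

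H3K27me3 is the histone mark set by Polycomb repressive complex 2, a methyltransferase complex that keeps developmental genes silent in plants and animals. OsEMF2b is a rice homolog of the Arabidopsis EMBRYONIC FLOWER 2 subunit of that complex and is known for its part in flowering and floral organ identity. Marked domains of one or several chromosomes can lie together in the nucleus, and their contacts are what an H3K27me3 ChIA-PET library samples.

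The series held 12 samples in 6 groups of 2 labelled replicates, and 2 groups were used here. The osemf2b group was seedlings that the titles label OsEMF2b, with Dongjin given as the cultivar. No label names the allele or the kind of mutation. The other group was Dongjin seedlings. Both were cross-linked with formaldehyde and with the longer cross-linker EGS and enriched with the same H3K27me3 antibody. Each group had 1 deposited list that pooled its replicates, so the spread between replicates is unknown for every value and no p-value is given. The intervals are 95% intervals of counting error only, exact Clopper-Pearson for shares, exact Poisson for PETs and order statistics for medians, and PETs are amplified molecules without molecular identifiers, so the true errors are wider.

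The osemf2b list held 15913 loops and 282020 PETs, against 94432 loops and 818847 PETs in Dongjin, which makes 2.90 times as many PETs in Dongjin. Total tags, recovered from the deposited p-values, were nearer to each other, at 31.2 M in osemf2b and 39.4 M in Dongjin. Every loop in both lists had at least 2 PETs and a false discovery rate of at most 0.0499. An unlisted region may therefore still have had contacts in osemf2b that were too few to be listed. Less H3K27me3 at a region and fewer contacts of it cannot be told apart in these libraries, since the mark is what was enriched. Gene annotation of the build of these lists was not used here, so regions are given by position in the authors' coordinates.

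A minimum of 20 PETs cut through a continuous range. At exactly 20 Dongjin PETs there were 160 regions, 120 of them unlisted, and at exactly 19 there were 163, of which 122 had no osemf2b loop. The first unlisted regions at 20 PETs in genome order were chr1:1515897-1516443, chr1:2953846-2956307 and chr1:2957349-2958845. Just outside, at 19 PETs, were chr1:4967124-4969017, chr1:6955924-6956205 and chr1:9238608-9240083. Those inside had 6, 8 and 8 partner regions and those outside had 7, 7 and 5, so partner counts overlapped across the minimum.

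Unlisted regions were common among weakly looped regions and less so among strongly looped ones. Of the regions with 20 to 39 Dongjin PETs, 1382 of 2092 were unlisted (66.1%, 64.0 to 68.1). The share was 50.2% at 40 to 79 PETs (1039 of 2069), 35.3% at 80 or more but under 160 PETs (530 of 1500) and 12.7% at 160 PETs or more (274 of 2154, 11.3 to 14.2). Most unlisted regions were therefore small contributors: their median was 45 PETs, against 117 in listed regions. Even so, 581 unlisted regions had 100 or more PETs in Dongjin and 18 had 500 or more. A minimum of 59 PETs, scaled for the larger Dongjin list, left 1207 unlisted regions, 26.8% of those past it. Summed over regions, unlisted regions held 227788 PETs on 8.43 Mb of Dongjin anchors, and listed regions held 1353076 PETs on 36.3 Mb.

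The tags of an anchor, which the rule for choosing regions did not use directly, followed the same order. They enter the deposited p-values of loops, which bear on which loops were listed, so they are not independent of the choice. Tags per bp are the deposited tags of an anchor divided by its width. At chr3:14436329-14437442 the tags, 18, were fewer than the PETs, 28, so tags are not a full count of reads there. No library without enrichment was used, so how far tags follow H3K27me3 was not tested. The median was 0.244 tags per bp in unlisted regions (0.241 to 0.247) and 0.365 in listed ones (0.360 to 0.371). Because tags and PETs come from the same library and rise together, regions were also compared within classes of PETs. The classes up to 160 PETs hold regions of like PETs, with medians of 28 in unlisted and 29 in listed regions in the lowest and 104.5 and 112 in the third, but the open class of 160 or more does not, with medians of 225 and 354 PETs and highest values of 990 and 15904. At 20 to 39 PETs the medians were 0.211 tags per bp in unlisted and 0.232 in listed regions, at 80 or more but under 160 PETs 0.287 and 0.351, and at 160 PETs or more they were 0.328 and 0.499. In all 4 PET classes the unlisted regions had the lower tag density.

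In each PET class the share fell with tag density. Of the regions of 160 PETs or more in the lowest tertile of tags per bp, 28.7% were unlisted (206 of 718, 25.4 to 32.2), against 8.22% in the middle tertile (59 of 718) and 1.25% in the highest (9 of 718, 0.575 to 2.37). At 80 or more but under 160 PETs the same tertiles gave 51.8%, 33.0% and 21.2%, at 40 to 79 PETs 63.8%, 51.2% and 35.7%, and at 20 to 39 PETs 73.5%, 68.0% and 56.7%. A strongly looped Dongjin region with dense tags was thus rarely unlisted in osemf2b, while at low PETs more than 1 region in 2 was unlisted at any density. The class of 160 PETs or more is open, so its tertiles may differ in PETs as well as in density.

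**Figure D1:**
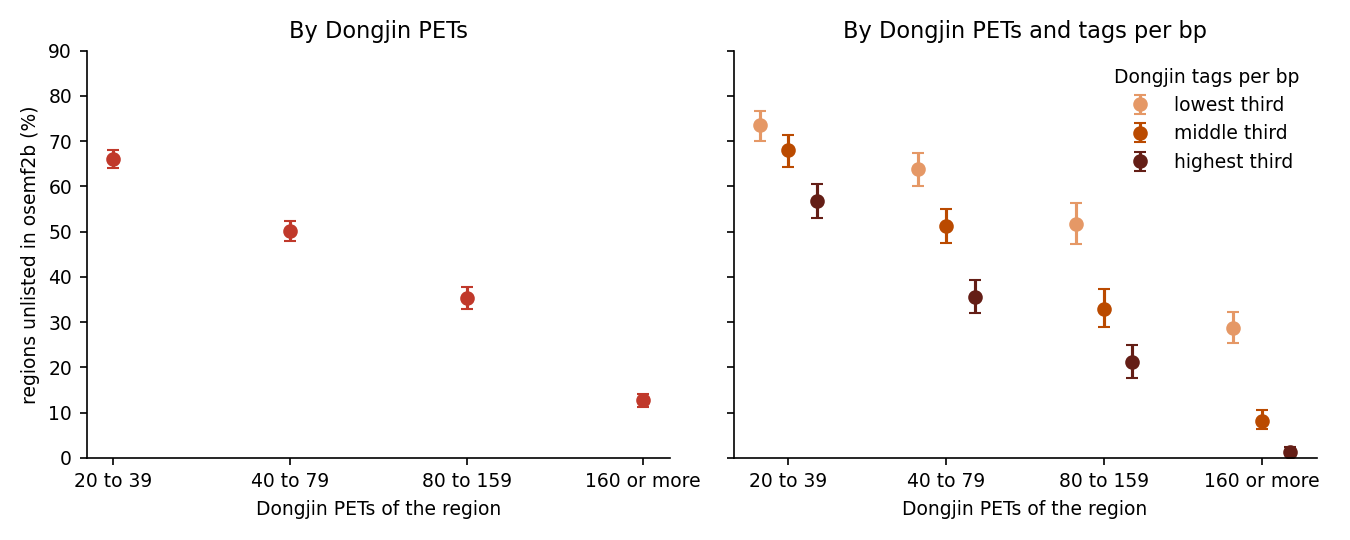
Share of Dongjin regions that were unlisted in osemf2b, in percent, by Dongjin PETs (left) and by Dongjin PETs and tertile of Dongjin tags per bp (right); points are shares and bars 95% Clopper-Pearson intervals. The share was 66.1% at 20 to 39 PETs and 12.7% at 160 or more, and within each PET class it was lowest in the densest tertile.

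Unlisted regions were also narrow. Every one of them was a single Dongjin anchor, with a median width of 2.05 kb (1.99 to 2.12), against 5.08 kb (4.92 to 5.27) of Dongjin anchor in listed regions. Dongjin anchors that do not overlap could be merged only through an osemf2b anchor, and a wider anchor has more room to overlap one. Both traits therefore follow in part from the way the regions were chosen. Past a minimum of 59 PETs the median of unlisted regions was 3.54 kb. Within PET classes the difference went the same way, with medians of 1.35 kb in unlisted and 1.85 kb in listed regions at 20 to 39 PETs and of 3.56 kb and 4.87 kb at 80 or more but under 160. In the open class of 160 or more, where listed regions also had more PETs, the medians were 5.88 kb and 10.7 kb. Per kb of anchor the PETs were alike, with medians of 25.1 PETs per kb in unlisted and 25.3 in listed regions, so the lower PETs of unlisted regions went with their width. Within PET classes the unlisted regions had more PETs per kb. The medians were 20.1 against 15.9 in listed regions at 20 to 39 PETs, and 40.8 against 36.3 at 160 or more. In classes of like PETs this restates their narrower width and is not a further trait.

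The widest unlisted region was chr12:21906487-21927859, at 21.4 kb with 536 PETs, followed by chr2:20246005-20265355 at 19.4 kb with 514 PETs and chr6:21004092-21021953 at 17.9 kb with 880 PETs. The narrowest were chr9:11964327-11964571 at 0.245 kb with 21 PETs, chr1:4569728-4569983 at 0.256 kb with 27 PETs and chr5:6919768-6920026 at 0.259 kb with 32 PETs. The widest regions thus had far more PETs than the narrowest, but the region with the most PETs, chr11:18421420-18427124, was 5.71 kb wide.

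**Figure D2:**
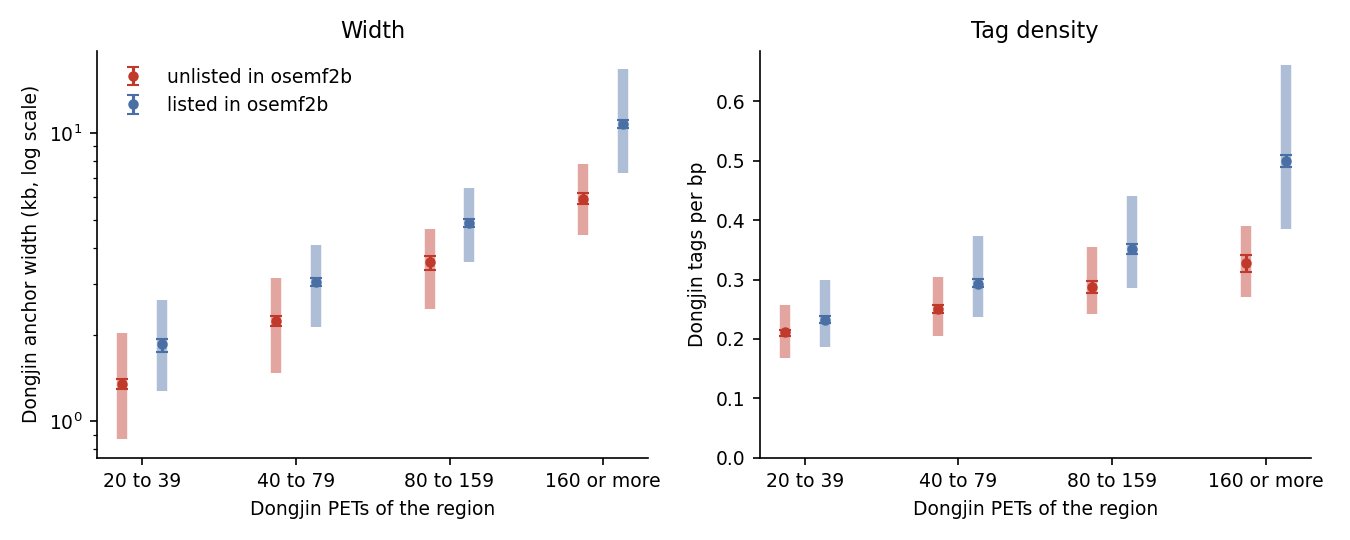
Dongjin anchor width in kb on a log scale (left) and Dongjin tags per bp (right) of unlisted and listed regions by Dongjin PETs; points are medians, thin bars their 95% intervals and thick bars the middle 50% of regions. At 160 PETs or more the median was 5.88 kb and 0.328 tags per bp in unlisted regions, against 10.7 kb and 0.499 in listed ones.

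Unlisted regions lay on all 12 chromosomes in much the same share. The share ran from 37.9% of regions on chromosome 7 (34.1 to 41.9) to 45.1% on chromosome 11 (41.4 to 48.9), beside 41.3% in all. Chromosome 1 had the most, 415 of 995. Along chromosomes, cut into 10 equal parts between the first and last region, the share was lowest, 34.1%, in part 4 and highest, 46.4%, in part 6, with 40.1% at the start and 38.0% at the end. The parts differed in PETs too, with median Dongjin PETs of 69 in part 4 and 58 in part 6.

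On a scale of 1 Mb the shares spread further. Of 324 windows with at least 10 regions, 72 had more than 50% of their regions unlisted and 39 had fewer than 25%, and none had no unlisted region. The highest shares were at 6 to 7 Mb on chromosome 3, with 18 of 24 regions unlisted (75%, 53.3 to 90.2), and at 19 to 20 Mb on chromosome 2 with 16 of 22 and 14 to 15 Mb on chromosome 1 with 8 of 11. The window beside the first, at 5 to 6 Mb on chromosome 3, had 17 of 24. The lowest was 4 to 5 Mb on chromosome 8, where 1 of 21 regions was unlisted (4.76%, 0.1205 to 23.8), then 4 to 5 Mb on chromosome 4 with 1 of 15. The median PETs of regions in these windows were 78 in the one on chromosome 3 with the highest share and 218 in the one on chromosome 8 with the lowest. With so few regions in a window the intervals were wide, and the windows named are the extremes of 324.

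Unlisted regions adjoined each other somewhat more often than listed regions adjoined them. The nearest region of 20 or more PETs was itself unlisted for 46.4% of unlisted regions (44.7 to 48.1) and for 38.8% of listed ones (37.4 to 40.3), around the 41.3% of all regions. At 160 PETs or more the shares were 48.9% and 37.1%. Along the chromosomes, 1030 unlisted regions stood alone between listed neighbours, 1642 formed runs of 2 to 4, and 553 lay in 91 runs of 5 or more. Runs passed over regions under 20 PETs, some of which had osemf2b loops. How many such runs a share of 41.3% alone would give was not worked out. The median gap to the nearest region of 20 or more PETs was 6.41 kb from unlisted and 7.85 kb from listed regions.

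The longest run was of 14 unlisted regions over 673 kb of chromosome 2, from 19130669 to 19804143. Its regions had 20 to 168 Dongjin PETs, with a median of 41.5, and the strongest was chr2:19169200-19175334 with 168 PETs and 0.459 tags per bp. The second was chr2:19284329-19290532 with 117 PETs and 31 partners. In the middle, chr2:19354080-19355216 lay 259 kb from the nearest osemf2b anchor. Of the PET ends in this run, 43.9% led to other regions of it and 32.3% to other chromosomes. The run sat between a listed region with 8 PETs in osemf2b and 64 in Dongjin and another with 11 in osemf2b and 128 in Dongjin. Among 5 weaker regions inside the run, 1 had an osemf2b loop, so the stretch was not wholly without listed contacts.

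The second longest run was on chromosome 12, from 20901956 to 21083377. Its 13 unlisted regions held 1581 PETs on 181 kb, 34 to 225 each, and 30.1% of the PET ends led to other regions of the run. The strongest were chr12:20936981-20943282 with 225 PETs and 41 partners and chr12:21071053-21077513 with 206 PETs and 38 partners. Tag density was even and low across it, from 0.144 to 0.284 tags per bp, and 1 of 3 weaker regions inside it had an osemf2b loop. The regions of this run had 11 to 41 partners each.

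The third, on chromosome 5 from 24712967 to 24912428, had 11 unlisted regions with 20 to 243 PETs. Its leading regions were chr5:24851513-24861703 with 243 PETs and chr5:24906273-24912428 with 177. Nearly 1 PET end in 2, 48.5%, led to another region of the run. A run of equal length, named after its values were seen, lay on chromosome 11 from 24962292 to 25139561, where 13.9% of the ends stayed inside, so runs differed in how far their regions contacted each other.

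**Figure D3:**
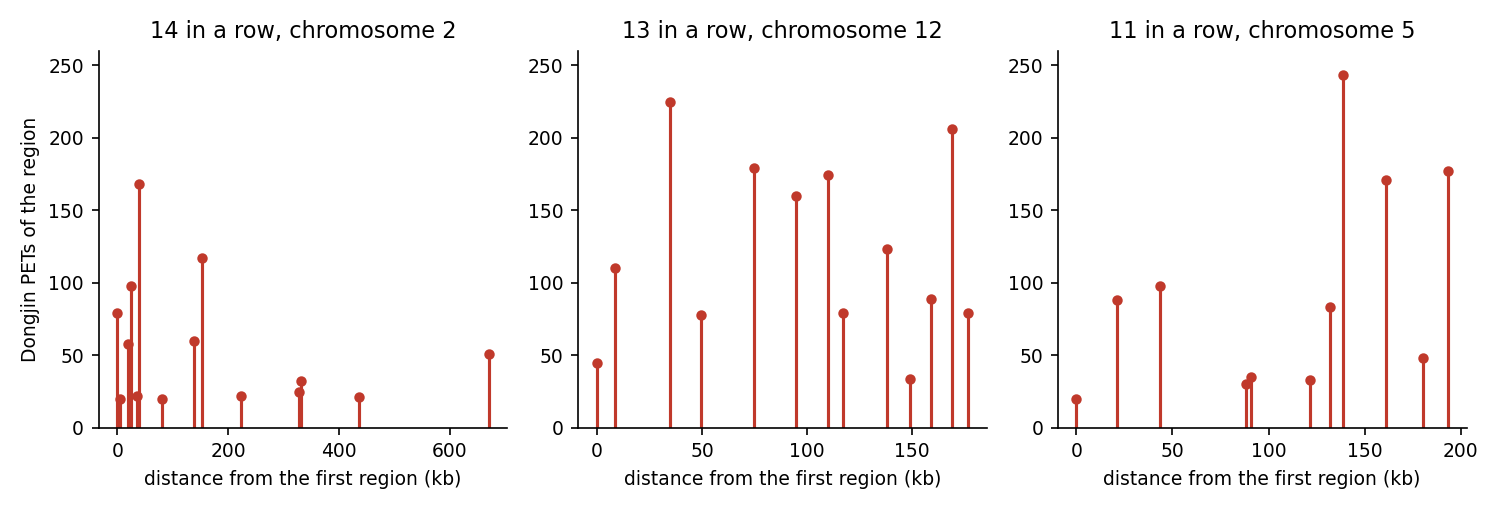
Dongjin PETs of each unlisted region in the 3 longest runs of consecutive unlisted regions, against the distance in kb from the start of the first. The run of 14 on chromosome 2 extended over 673 kb with 20 to 168 PETs, and the run of 13 on chromosome 12 over 181 kb with 34 to 225.

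The distance from unlisted regions to chromatin that was still looped in osemf2b varied widely. The median gap from an unlisted region to the nearest osemf2b anchor was 15.7 kb (14.97 to 16.3). It was not measured from other positions, so whether this is closer than elsewhere was not tested. For 592 unlisted regions (18.4%) it was 5 kb or less, with a smallest gap of 0.014 kb, and for 122 (3.78%) it was over 100 kb. The largest was 477 kb. Where the gap was a few bp, the choice between listed and unlisted rested on where the authors' anchor ended.

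The unlisted region with the most PETs was chr11:18421420-18427124, which had no listed loop in osemf2b and 990 PETs in Dongjin (929 to 1054). Its 43 partners were led by a 100 kb hub at chr11:18527869-18628123, with 178 PETs, and by chr11:18170025-18185070, centred 247 kb away, with 175. Both of these partners remained looped, with 1422 PETs in osemf2b and 15767 in Dongjin at the hub, and 1523 and 3332 at the other. The next partner, chr11:18408885-18416773, was centred 11.4 kb from it and had 30 PETs in osemf2b and 1264 in Dongjin. The region therefore dropped out of the list beside hubs that stayed in it.

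The second, chr6:21004092-21021953, had 880 PETs (823 to 940) with 59 partners, and 75.8% of the PETs led to partners under 100 kb away. Here the neighbours had few osemf2b PETs as well. Its leading partner chr6:21039200-21050007, with 217 PETs, had 6 PETs in osemf2b and 538 in Dongjin. Then came chr6:20993600-20998083, with 20 in osemf2b and 244 in Dongjin, and chr6:21023018-21029591, itself unlisted with 280 in Dongjin. The nearest osemf2b anchor lay 6.89 kb from the region.

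Next were chr11:23039695-23056692 with 873 PETs (816 to 933) and chr2:7368270-7382503 with 855 (799 to 914). The leading partner on chromosome 11, chr11:22976108-23011052, took 248 of the PETs and had 333 PETs in osemf2b and 2000 in Dongjin. On chromosome 2 the partner chr2:7324739-7366069 took 399 PETs, 46.7% of all, and had 941 PETs in osemf2b and 2201 in Dongjin. The chromosome 2 region ended 2.23 kb from an osemf2b anchor.

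A pair of unlisted regions on chromosome 7 joined the same group of hubs. They were chr7:2153205-2156857 with 756 PETs and chr7:2111909-2118250 with 694. Both contacted chr7:2361504-2455794, the first with 87 PETs and the second with 105, and this hub had 6079 PETs in osemf2b and 15904 in Dongjin. Both also contacted chr7:2227643-2306714, with 119 and 86 PETs, which had 3527 in osemf2b and 10820 in Dongjin. The second led to chr7:1860936-1969357 with 116 PETs, a hub with 9560 PETs in osemf2b and 11871 in Dongjin. All these hubs were 79.1 to 108 kb wide, while the unlisted regions beside them were 3.65 and 6.34 kb.

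The remaining regions of the 12 with the most PETs had 540 to 638. They were chr11:24778450-24786650 with 638 PETs, chr6:7334005-7345024 with 614, chr3:28375782-28383853 with 577, chr5:6303631-6309173 with 575, chr7:18082721-18087780 with 552 and chr3:14086609-14092504 with 540. A single partner dominated a pair of them. Of the PETs of chr7:18082721-18087780, 80.6% led to chr7:18099130-18122745, which had 124 PETs in osemf2b and 1260 in Dongjin. Of those of chr3:28375782-28383853, 76.6% led to chr3:28390053-28452738, which had 2960 in osemf2b and 2510 in Dongjin. The partner on chromosome 3 had more PETs in osemf2b than in Dongjin although its strong Dongjin contact was not listed there.

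The other leading partners in this group had 172 in osemf2b and 2119 in Dongjin at chr11:24747578-24775003, 175 and 1112 at chr6:7346862-7377169, 4332 and 7250 at chr5:6371595-6492846, and 76 and 1974 at chr3:14051307-14079119. All 12 leading partners lay on the chromosome of their unlisted region, with centres 21.3 to 200 kb apart, and all 12 kept a listed loop in osemf2b. As counted, 1 of the 12 had more PETs in osemf2b than in Dongjin, and with PETs scaled on the totals of the lists, 4 of the 12 did. These were chr3:28390053-28452738 (3.42 times the Dongjin level when scaled), chr7:1860936-1969357 (2.34 times), chr5:6371595-6492846 (1.73 times) and chr2:7324739-7366069 (1.24 times). The scaling used the 2.90 times as many listed PETs in Dongjin, a ratio that itself holds the smaller number of loops listed in osemf2b. Total tags were nearer, at 31.2 M in osemf2b and 39.4 M in Dongjin. Scaling on total tags would raise the osemf2b levels less, and it was not done.

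**Figure D4:**
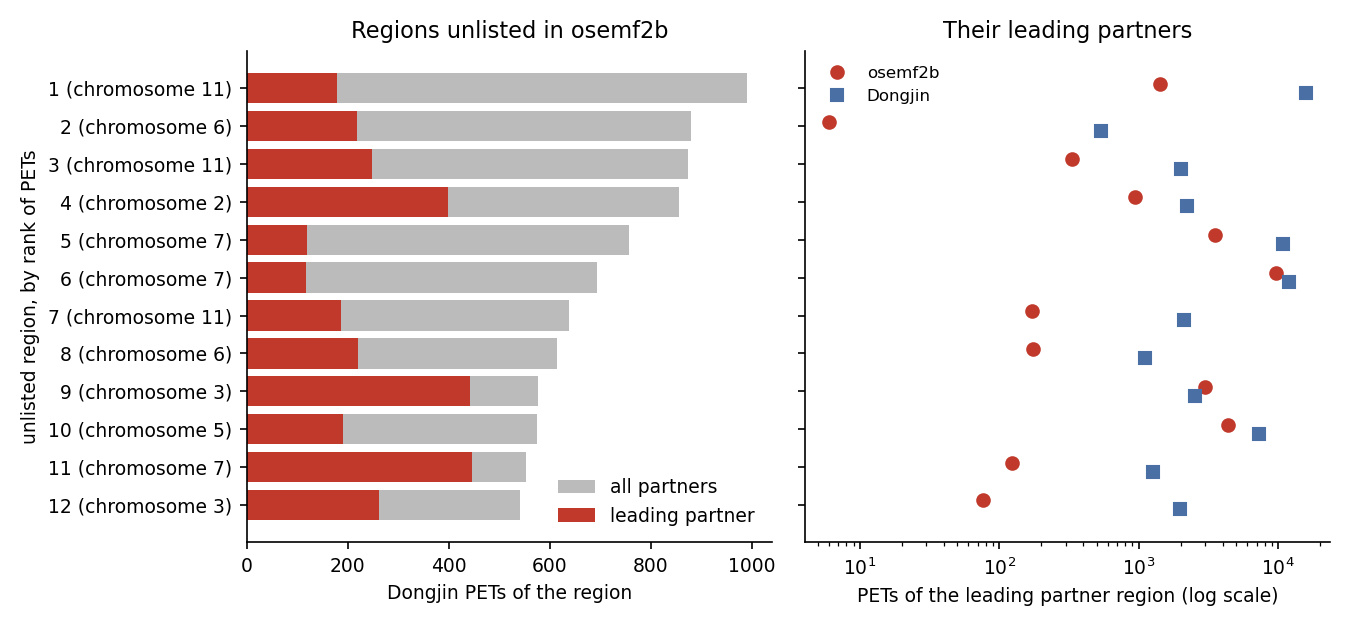
The 12 unlisted regions with the most Dongjin PETs (left, grey bars, with the PETs to the leading partner in red) and the PETs of each leading partner region in osemf2b and in Dongjin on a log scale (right). PETs are not scaled. The leading partners had 6 to 9560 PETs in osemf2b. For 1 of the 12, that of the ninth region, there were more in osemf2b (2960) than in Dongjin (2510), against 4 of 12 with PETs scaled on the list totals. Scaling on total tags, which differed less between the lists, was not done.

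The same held over all unlisted regions. The leading partner was a listed region for 2759 of 3225 (85.6%), another unlisted region for 443 (13.7%) and a region under 20 PETs for 23. It was on the same chromosome for 91.8%, at a median distance of 32.1 kb (30.2 to 34.0), and was the wider of the pair for 92.9%. Among listed regions the leading partner was listed for 89.7%, on the same chromosome for 92.4% and the wider for 76.1%. These shares changed with PETs. At 20 to 39 PETs it was on the same chromosome for 85.2% of unlisted and 73.1% of listed regions, and the wider for 96.4% and 95.2%. At 160 PETs or more the shares were 98.9% and 99.4% for the same chromosome, and 82.5% and 61.8% for the wider. The listed leading partners of unlisted regions had a median of 54 PETs in osemf2b and 496 in Dongjin. No unlisted region had unlisted partners only, and 555 (17.2%) had none. That the leading partner was mostly a listed region was thus common to both kinds of region.

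Few partners led many unlisted regions, since 1703 different regions were leading partners and 19 of them led 10 or more. The hub chr12:19276316-19426772 led 33 and contacted 79 unlisted regions, to which 16.2% of its Dongjin PETs went, and it had 17716 PETs in osemf2b and 7170 in Dongjin. The hub chr11:25803300-25900199 also led 33, with 72 unlisted partners, and had 810 PETs in osemf2b and 6815 in Dongjin. Next came chr3:26959985-27039597 and chr5:6371595-6492846 with 26 each, and chr1:5537972-5674372 with 25. Between 11.9% and 21.2% of the PETs of these 5 hubs led to unlisted regions. As counted, 1 of these hubs had more PETs in osemf2b than in Dongjin, and 4 did with PETs scaled on the list totals. That scaling has the limit given above, so the larger count rests on the choice of scale.

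Loops with an unlisted region at either end numbered 41079 in Dongjin and held 208960 PETs. Of these PETs, 89.6% joined an unlisted to a listed region, 9.01% joined 2 unlisted regions and 1.38% led to a region under 20 PETs. Loops between 2 unlisted regions were short: their median span within a chromosome was 65.3 kb (61.8 to 69.6). It was 184 kb (180 to 191) between an unlisted and a listed region, and 285 kb (278 to 292) between 2 listed regions. With a false discovery rate below 0.01, the median span of all loops with an unlisted end was 95.5 kb, beside 155 kb here, and 15.2% of their PETs joined 2 unlisted regions. Weighted by PETs the medians were 27.01, 60.8 and 86.3 kb in the same order.

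Within a chromosome, the PETs between 2 unlisted regions had the shortest reach. Over all loops with an unlisted end, 17.7% of the PETs lay under 20 kb and 31.1% from 20 to 100 kb. Between 2 listed regions these shares were 8.96% and 37.3%. Under 20 kb lay 30.8% of the PETs between 2 unlisted regions, 16.3% of those between an unlisted and a listed one, and 8.96% of those between 2 listed ones. From 100 kb to 1 Mb the shares were 13%, 23.7% and 31.9%. Loops between chromosomes held 17.9%, 22.5% and 12.7% of the PETs. Over all loops with an unlisted end they held 22.3%, but 7.39% where the false discovery rate was below 0.01 and 10.2% where Dongjin loops had 3 or more PETs. The longest loop of an unlisted region within a chromosome spanned 40781 kb.

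**Figure D5:**
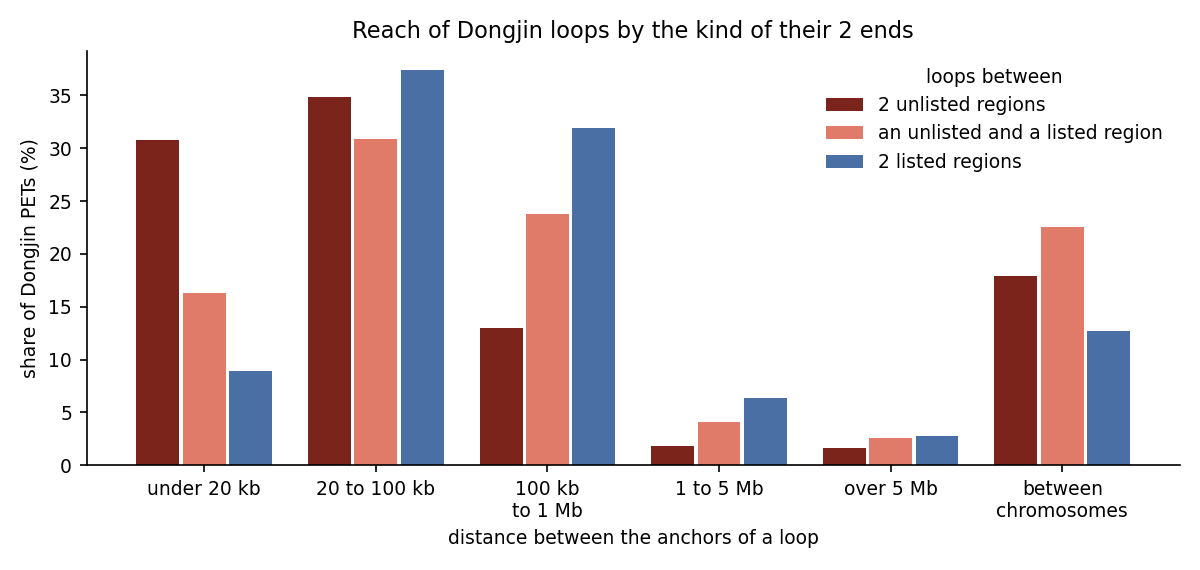
Share of Dongjin PETs, in percent, by the distance between loop anchors for loops between 2 unlisted regions, between an unlisted and a listed region, and between 2 listed regions. Under 20 kb the shares were 30.8%, 16.3% and 8.96%, and from 100 kb to 1 Mb 13%, 23.7% and 31.9%.

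The reach differed when regions were compared within PET classes. Over all unlisted regions the median share of a region's PETs to other chromosomes was 25.5%, against 24.7% in listed regions. At 20 to 39 PETs it was 36.7% in unlisted and 51.9% in listed regions, and at 160 PETs or more 9.23% and 14.3%. Partners under 100 kb away took a median of 61.5% of the PETs of unlisted and 49.9% of listed regions at 160 PETs or more. Unlisted regions also had fewer partners, with medians of 9 against 11 in listed regions at 20 to 39 PETs, 19 against 23 at 80 or more but under 160, and 27 against 39 in the open class of 160 or more, where listed regions had more PETs. Their leading partner took more, at medians of 31.7% and 25.5% of the PETs in the highest class. So within each PET class unlisted regions had fewer and nearer partners, although the pooled PETs of their loops held more contacts between chromosomes.

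Seen from an unlisted region, unlisted partners took 16.7% of the PETs to regions of 20 or more, and seen from a listed region 14.4%. The distance mattered for this. From 20 to 100 kb the shares were 18.5% and 12.8%, from 100 kb to 1 Mb 9.92% and 10.6%, and between chromosomes 13.8% and 22.1%. In these pooled PETs, unlisted regions contacted each other relatively more often nearby and relatively less often across chromosomes. The shares were not compared within PET classes. Unlisted regions had fewer PETs, and a contact needed at least 2 PETs to be listed, so the part of low PETs in this is not known.

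The strongest pair of unlisted regions was on chromosome 2, where chr2:20246005-20265355 and chr2:20268714-20284739 were joined by 204 PETs (177 to 234) over 21.1 kb. They had 514 and 534 Dongjin PETs in all and low densities of 0.251 and 0.277 tags per bp. Next were chr6:22668219-22683265 and chr6:22689527-22694675 with 140 PETs, and chr6:21004092-21021953 and chr6:21023018-21029591 with 95. Between chromosomes the strongest such pairs had 10 PETs (chr2:13470334-13471337 and chr6:25448014-25448974), 9 (chr4:20345845-20346589 and chr11:6943518-6948917) and 7 (chr3:28375782-28383853 and chr6:2300934-2306568). Such pairs were exceptions, since 2185 pairs of unlisted regions within a chromosome had 2 to 4 PETs and 2 pairs had 100 or more.

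Among the 804 unlisted regions of 80 or more PETs, 3 had over 90% of their PETs on other chromosomes, beside 3 of 2850 listed regions, and 21 (2.61%) had over 50%, beside 137 listed ones (4.81%). In each of the 3 unlisted regions most of the PETs led to chromosome 11. The region chr6:25448014-25448974, 0.961 kb wide, had 330 PETs, of which 93.6% led to chromosome 11. Its partners there were chr11:18633569-18655292 with 106 PETs, chr11:18657278-18678801 with 84 and chr11:18527869-18628123 with 56. This region also had the highest tag density of all unlisted regions, 0.968 tags per bp.

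The region chr2:13470334-13471337, 1.00 kb wide, shared these partners. It had 276 PETs, all on other chromosomes and 94.2% on chromosome 11, led by the same chr11:18633569-18655292 with 92. These narrow regions were also joined to each other by the 10 PETs given above. The third, chr7:25389931-25392414, had 89 PETs, led by chr11:27466611-27469556 with 28. Another region, chr5:27998772-28004686, held the strongest contact of any unlisted region with another chromosome, 113 PETs (93.1 to 136) to chr11:18527869-18628123, but 44.0% of its 302 PETs stayed on chromosome 5. Whether any of these sequences also occur on chromosome 11 was not tested. The regions on chromosomes 7 and 5 were picked out after their values were seen.

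The next highest tag densities were 0.774 tags per bp at chr5:1905127-1909961 with 118 PETs, 0.725 at chr1:3604465-3608310 with 125, 0.711 at chr4:29993639-29998498 with 130 and 0.692 at chr12:25450727-25453606 with 201. The first 2 of these sent 47.5% and 58.4% of their PETs to other chromosomes. At the other end, chr3:14436329-14437442 had 18 tags and 28 PETs, or 0.0162 tags per bp, followed by chr4:2073730-2082349 with 0.0394 and chr4:14632466-14638001 with 0.0432. Dense regions were exceptions among unlisted regions, whose middle 50% lay between 0.195 and 0.304 tags per bp.

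The unlisted regions with the most partners were wide ones. The leader, chr12:21906487-21927859, had 62 partners for its 536 PETs, and only 14.9% of those PETs were to partners under 100 kb away. The regions chr6:21004092-21021953 and chr11:23039695-23056692 had 59 each, chr9:10457401-10466873 had 48 with 422 PETs, and chr11:24632803-24639911 had 46 with 403. Over all unlisted regions the median was 12 partners, against 23 in listed ones.

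How often a contact of given strength was listed in osemf2b was read from all pairs of regions. Within a chromosome, 764 of 964 pairs with 100 or more Dongjin PETs had an osemf2b loop (79.3%, 76.6 to 81.8), and 103 of the 964 included an unlisted region. At 50 to 99 PETs it was 612 of 1249 pairs (49%) and at 20 to 49 PETs 1024 of 3915 (26.2%). At 10 to 19 PETs it was 707 of 6005 (11.8%) and at 5 to 9 PETs 440 of 10581 (4.16%). Pairs with an unlisted region have no osemf2b loop by the way these regions were chosen, which lowers these shares. Where both regions had osemf2b loops, the shares were 88.7% at 100 or more PETs and 63.0% at 50 to 99. They were 36.8% at 20 to 49 PETs, 18.3% at 10 to 19 and 7.32% at 5 to 9. Such regions were chosen for having at least 1 osemf2b loop, which raises these shares. The leading contact of an unlisted region had a median of 12 PETs, and it reached 20 PETs in 1020 regions (31.6%), 50 in 320 (9.92%) and 100 in 93 (2.88%). Most unlisted regions thus had a leading contact under 20 PETs. Where both regions had osemf2b loops, contacts of 10 to 19 and of 5 to 9 PETs within a chromosome were seldom listed in osemf2b. Whether this bears on why regions were unlisted was not tested. A leading contact of 100 PETs or more was found in 93, and it lay within a chromosome in 91. Between chromosomes, 1 of the 3 pairs of 100 or more PETs was listed in osemf2b.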

How the data were processed

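The authors deposited 1 loop list per group with 15 columns and no header; both replicates are in 1 list. Raw counts were deposited by the authors for the PETs of a loop and the tags of an anchor. The distance between anchors in bp was deposited by the authors as well. The p-values and false discovery rates of loops were deposited by the authors too. Which build, aligner and loop caller they used is not given in the sources used here. Starts were printed 1-based. The 4 lists of other varieties and tissues were not used here, and 0 columns belonged to other series.

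Anchors overlapping by at least 1 bp were merged, and a loop was assigned to a region by its anchor midpoint; a loop inside 1 region was counted once. Tags per bp divided the tags by the width of the Dongjin anchors. Total tags came from the Poisson p-values of 2-PET loops whose anchors both had more than 200 tags. Partners, spans, runs of consecutive regions and medians were computed in Python 3.11.15 with pandas 2.3.3 and scipy 1.17.1, and the merging and choice of regions were tested on simulated data. The named regions are the 12 with the most PETs, the extremes of tag density, width and partners, the 3 longest runs, the strongest pairs and the regions at the threshold. Regions, lists and rules were chosen with earlier results of these data known. Scaling the PETs of partners on the list totals, and the leading partners of listed regions, were added after seeing the data. The planned gene lists were not analysed here, because no annotation of this build was used.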

Additional observations from a re-analysis of the deposited data

How the results depend on the processing

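The values below are, in this order where given, the share of Dongjin regions that were unlisted, their median width, their median tags per bp, the median span of their loops within a chromosome, the share of their PETs between chromosomes, the share of their PETs between 2 unlisted regions, and the share whose nearest region was unlisted. The values as reported were 41.3%, 2.05 kb, 0.244, 155 kb, 22.3%, 9.01% and 46.4% for 3225 regions. With a minimum of 10 PETs they were 46.8%, 1.62 kb, 0.224, then 24.0%, 9.29% and 51.5%. With a minimum of 40 PETs they were 32.2%, 2.89 kb, 0.271, then 18.5%, 8.08% and 38.5% for 1843 regions. With a minimum of 59 PETs, scaled for the ratio of the lists, they were 26.8%, 3.54 kb, 0.286, then 16.2%, 6.90% and 34.2% for 1207 regions. With anchors merged within 1 kb the share between chromosomes was 22.6%. With loops within a chromosome only they were 50.9%, 2.94 kb, 0.268, 167 kb, then 17.5% and 60.8%, and the share between chromosomes has no value there. With a false discovery rate below 0.01 they were 47.7%, 2.72 kb, 0.262, 95.5 kb, 7.39%, 15.2% and 56.0%. With osemf2b loops of 3 or more PETs they were 53.7%, 2.29 kb, 0.251, 165 kb, 24.0%, 14.2% and 60.4%. With Dongjin loops of 3 or more PETs they were 35.4%, 2.60 kb, 0.259, 112 kb, 10.2%, 7.56% and 40.8%. The other values moved by less than their counting error, or by less than 1.5 times for counts of regions. The cause of these shifts was not tested beyond each setting's own construction, in which a changed minimum or list chooses other regions. Every one of these results except tags per bp and the share whose nearest region was unlisted moved by over 1.5 times under at least 1 setting. No paired analysis was possible because each list pools both replicates of its group, and for the same reason no replicate could be left out.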

Other observations

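Listed regions differed by what lay beside them. Their osemf2b PETs were divided by their Dongjin PETs, each scaled on the PETs of its list. The median of this ratio was 0.289 (0.275 to 0.308) in the 1783 listed regions whose nearest region of 20 or more PETs was unlisted, and 0.40 (0.375 to 0.415) in the 2807 whose nearest region was listed. At 160 PETs or more the medians were 0.256 (697 regions) and 0.434 (1183 regions). At 40 to 79 PETs they were 0.273 (412 regions) and 0.344 (618 regions), and at 20 to 39 PETs 0.447 and 0.518. An unlisted neighbour has no osemf2b loop by the way it was chosen, while its Dongjin PETs with the listed region stayed in the divisor. A lower ratio beside unlisted regions is therefore partly built in, and how large that part was is not known. Regions are not replicates of a condition, and the difference was not tested.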
